A study of Danio rerio with 6 samples.

Results

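The genes described here code for factors of nonsense-mediated mRNA decay and for proteins of the exon junction complex. They were chosen by symbol, with earlier results of these data known. The list holds 9 genes: upf1, upf2, upf3a, upf3b, smg1, smg5, smg6, eif4a3 and casc3. Of these, 8 had a row of that symbol among the 32520 genes of the deposited tables, and all 8 passed the filter on low counts that left 22347 genes for testing. The member upf2, whose product links UPF1 to the UPF3 proteins, matched no row by symbol and is not analysed here. RNA sequencing compared zebrafish (Danio rerio) embryos of the genotype bcas2-KO, at 3 days post fertilization, with WT embryos of the same age. Each genotype had 3 libraries, each made from 10 embryos of known genotype pooled together. A pool averages over the tissues it holds, so fewer cells of a type and less RNA per cell cannot be told apart. The labels do not describe the bcas2 allele. They call the libraries biological replicates without naming the clutches, so the p-values measure the spread between these pools.

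Nonsense-mediated decay removes mRNAs on which translation stops too early, and it also sets the level of many normal transcripts. The spliceosome leaves an exon junction complex, built on the RNA helicase EIF4A3 with MAGOH and RBM8A, just upstream of each junction between joined exons. CASC3 is a further, more loosely bound subunit. A complex that remains downstream of a stop codon is contacted through UPF3 and UPF2 by the helicase UPF1, which the kinase SMG1 phosphorylates. Phosphorylated UPF1 recruits SMG6, which cuts the mRNA, and SMG5, which helps to bring in the enzymes that shorten and decap it. The targeted gene, bcas2, encodes a spliceosomal protein that belongs to the Prp19 complex.

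The targeted transcript had 3.54, 3.09 and 4.49 CPM (counts relative to the scaled library total) in the bcas2-KO libraries, against 29.4, 27.9 and 27.4 CPM in the WT libraries. Gene counts summed to between 32822716 and 40462653 in the bcas2-KO libraries and to between 35560010 and 49526995 in the WT libraries. All 6 libraries held transcripts of neurons, muscle, blood and epidermis, and the neuronal gene elavl3 lay between 134 and 171 CPM in all of them. The libraries differed in eye transcripts. The 15 lens genes of a marker list summed to 332 CPM in bcas2-KO library 3 and 449 CPM in WT library 1, with none of the 15 at 0. In the other 4 libraries the sum lay between 1.98 and 7.12 CPM, with 1 to 5 of the genes at 0. The photoreceptor gene rho had 30.5 CPM in bcas2-KO library 3 and 134 CPM in WT library 1, against at most 1.11 CPM in the other 4. Eye transcripts were thus scarce in most libraries, and the reason was not tested. Fits without both lens-rich libraries, which leave 2 of each genotype, are given below for the 8 genes and for the calls of the further lists.

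Of the 8 measured genes, 4 rose in bcas2-KO embryos, 0 fell and 4 did not pass the test. The genes that rose were eif4a3, casc3, smg1 and upf3a, each by a factor of 1.26 to 1.39, and those that did not pass were upf1, upf3b, smg5 and smg6. A gene is called changed at an adjusted p under 0.05 (edgeR quasi-likelihood test, Benjamini-Hochberg over all tested genes). None of the 8 was lower at an unadjusted p under 0.05 either, where the share of all tested genes is not given. DESeq2 also called 4 higher and 0 lower, with 2568 genes higher and 2148 lower over all genes. By the edgeR test 10.6% of all tested genes were called higher and 9.01% lower. That balance depended on the scaling, since 2369 genes were higher and 2013 lower with TMM factors, against 1746 higher and 2625 lower with upper-quartile factors. The median log2 fold change of the 8 genes was 0.22, against -0.02 over all tested genes. In 5 of the 8 genes every bcas2-KO library lay above every WT library, and in 0 of them below. Such separation was found in 39.4% of all tested genes, with 20.1% higher and 19.4% lower in bcas2-KO. How many of the 8 were called depended on the libraries. Dropping bcas2-KO library 1 or WT library 2 left 1 call. Dropping bcas2-KO library 3 or WT library 3 left 2. Calls over all genes, 2369 higher and 2013 lower with 6 libraries, shrank in the same fits. In that order 1179, 1013, 1424 and 1660 genes were higher and 795, 717, 1067 and 1282 lower. Fewer calls were thus not particular to the 8 genes, though in these fits they kept a smaller share of their higher calls than all genes did. Dropping bcas2-KO library 2 or WT library 1 kept 4 of them, with 1727 and 2813 genes higher. In the fit without both lens-rich libraries 3 were called, against 9.14% of all tested genes called higher and 7.14% lower. In that fit upf1, upf3b, smg5 and smg6 did not pass either (adjusted p = 0.544, 0.475, 0.793 and 0.542, edgeR).

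**Figure D1:**
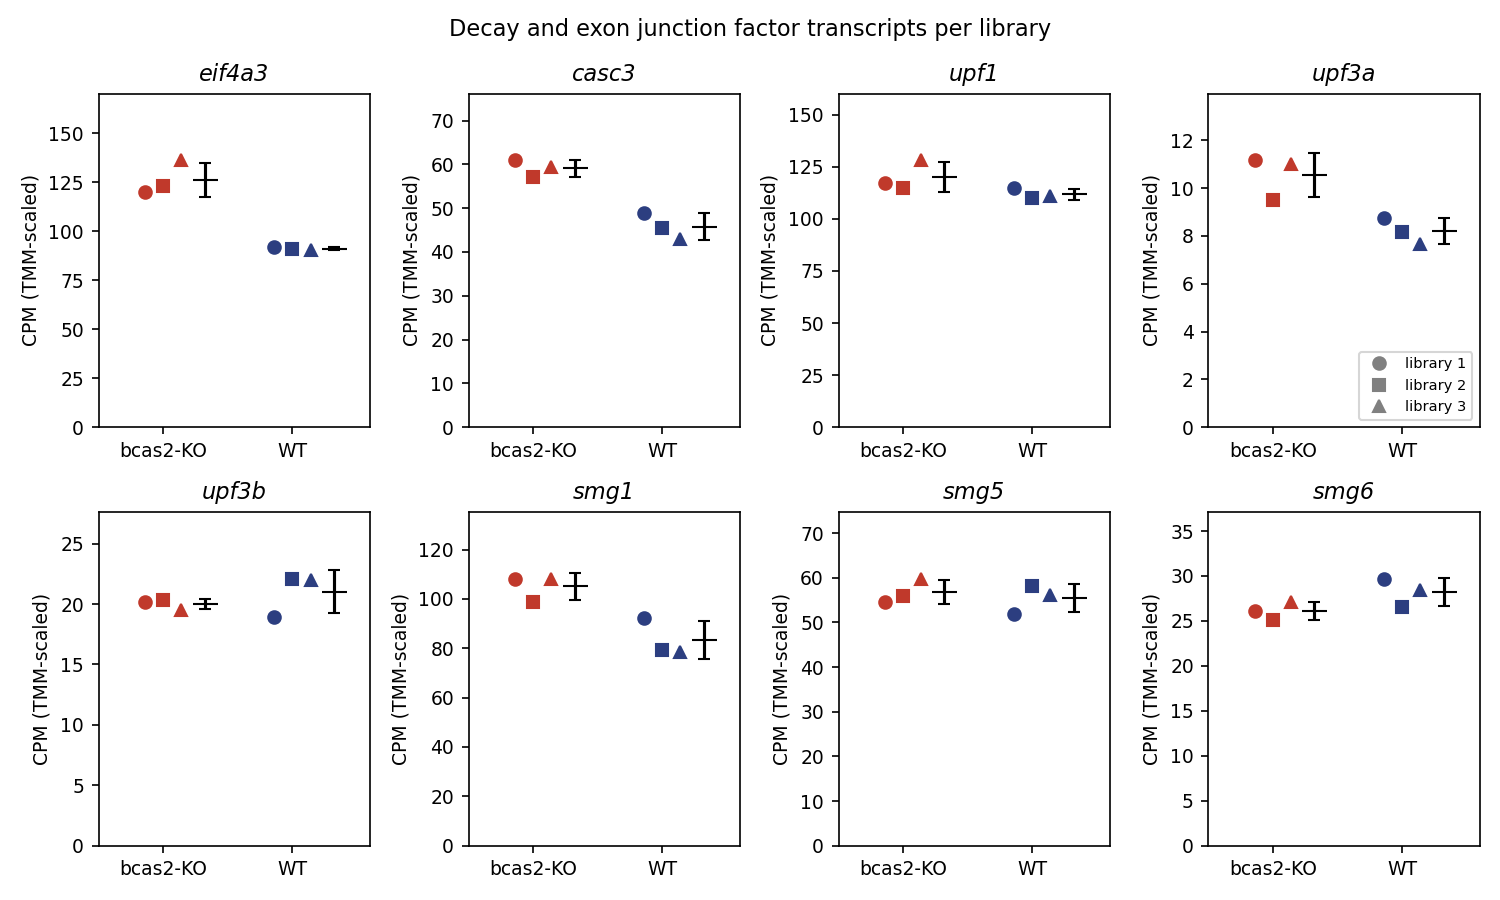
Transcript level of each of the 8 genes in CPM after TMM scaling (vertical axis, from 0), with 1 point per library, bcas2-KO left of WT, and the mean ± SD of 3 libraries beside the points. The points of the genotypes do not overlap for eif4a3, casc3, upf1, upf3a and smg1, and they overlap for upf3b, smg5 and smg6.

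The exon junction gene eif4a3 showed the largest fold change of the 8 genes in the fit to all 6 libraries. Its product is the DEAD box helicase that clamps the complex onto RNA. The gene (ENSDARG00000102978) had 120, 123 and 136 CPM in the bcas2-KO libraries, against 92.0, 91.0 and 90.3 CPM in the WT libraries. The WT libraries lay within 1.66 CPM of each other, and the lowest bcas2-KO library was well above all of them. Transcripts averaged 126 ± 8.67 CPM in bcas2-KO and 91.1 ± 0.835 CPM in WT (SD, n = 3 each), a log2 fold change of 0.47 (SE 0.08; edgeR, adjusted p = 0.00332). Of all tested genes, 9.01% had a higher log2 fold change. The eif4a3 call held in each of the 6 fits that left out a library (adjusted p from 0.00402 to 0.0233) and without both lens-rich libraries (log2 fold change 0.43, adjusted p = 0.0168).

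The gene casc3 (ENSDARG00000029911) codes for a more loosely bound subunit of the complex that in human cells promotes decay of its targets. It had 60.9, 57.0 and 59.4 CPM in the bcas2-KO libraries, against 49.0, 45.4 and 43.0 CPM in the WT libraries. Again no bcas2-KO library reached down to the WT range. The means were 59.1 ± 1.98 CPM in bcas2-KO and 45.8 ± 3.01 CPM in WT (SD, n = 3 each), 1.29-fold higher (log2 fold change 0.37 with SE 0.08; edgeR, adjusted p = 0.0111). The casc3 call was narrowly lost without bcas2-KO library 1 (adjusted p = 0.0538) or WT library 2 (0.0569). Without both lens-rich libraries the log2 fold change was 0.42 (adjusted p = 0.0213).

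The other core subunits, which are outside the list of 9, did not pass the test. The gene magoh averaged 23.3 ± 0.337 CPM in bcas2-KO and 20.4 ± 1.22 CPM in WT (SD, n = 3 each; log2 fold change 0.19, adjusted p = 0.140, edgeR). Its partner rbm8a had 94.8, 90.4 and 95.2 CPM in the bcas2-KO libraries, against 91.5, 91.0 and 91.5 CPM in the WT libraries. The genotypes overlapped, and the 95% interval of the rbm8a log2 fold change ran from -0.12 to 0.18. Set against rbm8a within each library, the FPKM of eif4a3 (reads per length and library size) was 0.335, 0.360 and 0.379 times that of rbm8a in bcas2-KO, against 0.266, 0.265 and 0.262 times in WT. The ratio was thus higher in every bcas2-KO library, 1.35-fold on average (exact permutation p = 0.1, two-sided, adjusted over 2 ratios 0.1). That is the smallest p that 3 libraries against 3 allow.

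The UPF3 paralogs gave 1 call, for upf3a. Their products bind UPF2 and the exon junction complex, and in mammals UPF3B is the more active of the pair in decay. The gene upf3a (ENSDARG00000069297) had 11.2, 9.50 and 11.0 CPM in the bcas2-KO libraries, against 8.75, 8.18 and 7.66 CPM in the WT libraries. The genotypes were apart, with the closest libraries 0.751 CPM from each other. The upf3a log2 fold change was 0.36 (SE 0.11; edgeR, adjusted p = 0.0471), just inside the threshold. It was lost without bcas2-KO library 1 (adjusted p = 0.150), bcas2-KO library 3 (0.131), WT library 2 (0.139), WT library 3 (0.127) or both lens-rich libraries (0.0981). The log2 fold change stayed between 0.32 and 0.44 whichever library was left out.

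The gene upf3b (ENSDARG00000000489) had 20.2, 20.4 and 19.5 CPM in the bcas2-KO libraries, against 18.9, 22.1 and 22.0 CPM in the WT libraries. All 3 bcas2-KO libraries lay inside the WT range. The upf3b log2 fold change was -0.07, with a 95% interval from -0.27 to 0.14 (adjusted p = 0.640, edgeR). On the FPKM scale, the ratio of upf3b to upf3a within a library was 1.70, 2.02 and 1.67 in bcas2-KO, against 2.04, 2.55 and 2.71 in WT. It was lower in every bcas2-KO library, 0.742 times the WT ratio on average (exact permutation p = 0.1, two-sided, the smallest possible). The closest libraries, bcas2-KO library 2 and the lens-rich WT library 1, were almost level. In the 4 libraries without the lens-rich ones the log2 difference of this ratio was -0.50, against -0.43 in all 6.

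**Figure D2:**
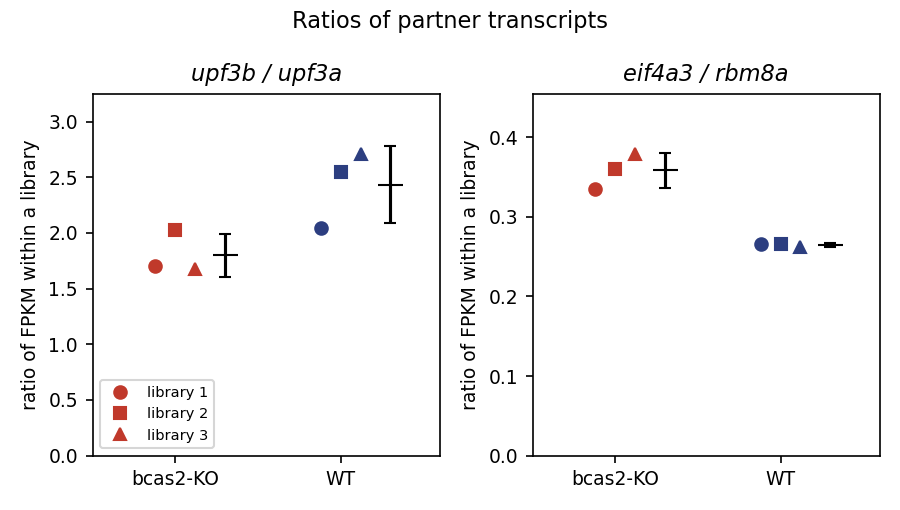
Ratio of upf3b to upf3a (left panel) and of eif4a3 to rbm8a (right panel), computed from FPKM within each library, with 1 point per library, bcas2-KO left of WT, and mean ± SD of 3 libraries. The upf3b to upf3a ratio is lower and the eif4a3 to rbm8a ratio higher in all 3 bcas2-KO libraries than in any WT library.

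The helicase gene upf1 (ENSDARG00000016302) had 117, 115 and 128 CPM in the bcas2-KO libraries, against 115, 110 and 111 CPM in the WT libraries. The genotypes did not overlap, but bcas2-KO library 2 and WT library 1 lay only 0.14 CPM apart. The upf1 log2 fold change of 0.10 did not pass (SE 0.07; edgeR, adjusted p = 0.355). Its 95% interval ran from -0.06 to 0.27, whose upper end is a 1.20-fold rise.

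The kinase gene smg1 (ENSDARG00000054570) had 108, 98.9 and 108 CPM in the bcas2-KO libraries, against 92.2, 79.4 and 78.5 CPM in the WT libraries. The lens-rich WT library 1 was the highest of its genotype and came closest to the bcas2-KO range. The means were 105 ± 5.33 CPM in bcas2-KO and 83.4 ± 7.64 CPM in WT (SD, n = 3 each), 1.26-fold higher (log2 fold change 0.33 with SE 0.09; edgeR, adjusted p = 0.0254). The smg1 call was lost without bcas2-KO library 1 (adjusted p = 0.0879), bcas2-KO library 3 (0.0837), WT library 2 (0.109) or WT library 3 (0.0643). It held without WT library 1, where the log2 fold change was 0.42 (adjusted p = 0.00602), and without both lens-rich libraries (0.40, adjusted p = 0.0249).

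The effectors that act on phosphorylated UPF1 did not pass. The gene smg5 (ENSDARG00000041481) had 54.6, 56.0 and 59.8 CPM in the bcas2-KO libraries, against 52.0, 58.2 and 56.1 CPM in the WT libraries. These values were interleaved, and the smg5 log2 fold change of 0.03 had a 95% interval from -0.14 to 0.21 (adjusted p = 0.787, edgeR). Its sign turned under 4 of 15 other settings.

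The endonuclease gene smg6 (ENSDARG00000100481) had 26.1, 25.1 and 27.1 CPM in the bcas2-KO libraries, against 29.7, 26.6 and 28.5 CPM in the WT libraries. Only bcas2-KO library 3 and WT library 2 broke the separation. The smg6 log2 fold change was -0.12, with a 95% interval from -0.30 to 0.07 (adjusted p = 0.361, edgeR). Neither interval reached the 1.26-fold point estimate of smg1. The smg1 log2 fold change had a 95% interval from 0.14 to 0.53, which overlapped that of smg5 but not that of smg6. Differences between these genes were not tested.

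Levels can be ordered between genes on the FPKM scale. In bcas2-KO the order was eif4a3 (78.5 FPKM), casc3 (34.5), smg5 (33.1), upf1 (30.6), smg1 (18.8), upf3b (17.0), smg6 (10.0) and upf3a (9.52). In this order casc3 overlapped with smg5, smg5 with upf1, and smg6 with upf3a across the 3 libraries. In WT the order was eif4a3 (57.3 FPKM), smg5 (32.7), upf1 (28.8), casc3 (27.0), upf3b (18.1), smg1 (15.1), smg6 (11.0) and upf3a (7.47), with overlaps between upf1 and casc3 and between upf3b and smg1. By mean level the highest and the lowest gene were thus the same in both genotypes. The mean of casc3 moved past smg5 and upf1, and that of smg1 past upf3b. Each of these pairs overlapped in either bcas2-KO or WT. Between pools, the coefficient of variation of the CPM of the 8 genes ran from 2.15% to 8.72% in bcas2-KO (median 4.89%) and from 0.917% to 9.17% in WT (median 6.15%). For the 10119 tested genes with a mean of at least 10 CPM it had a median of 6.60% in bcas2-KO and 7.91% in WT. Averaged over all libraries, upf3a lay below that cut, and these genes were not matched to the 8 in level.

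**Figure D3:**
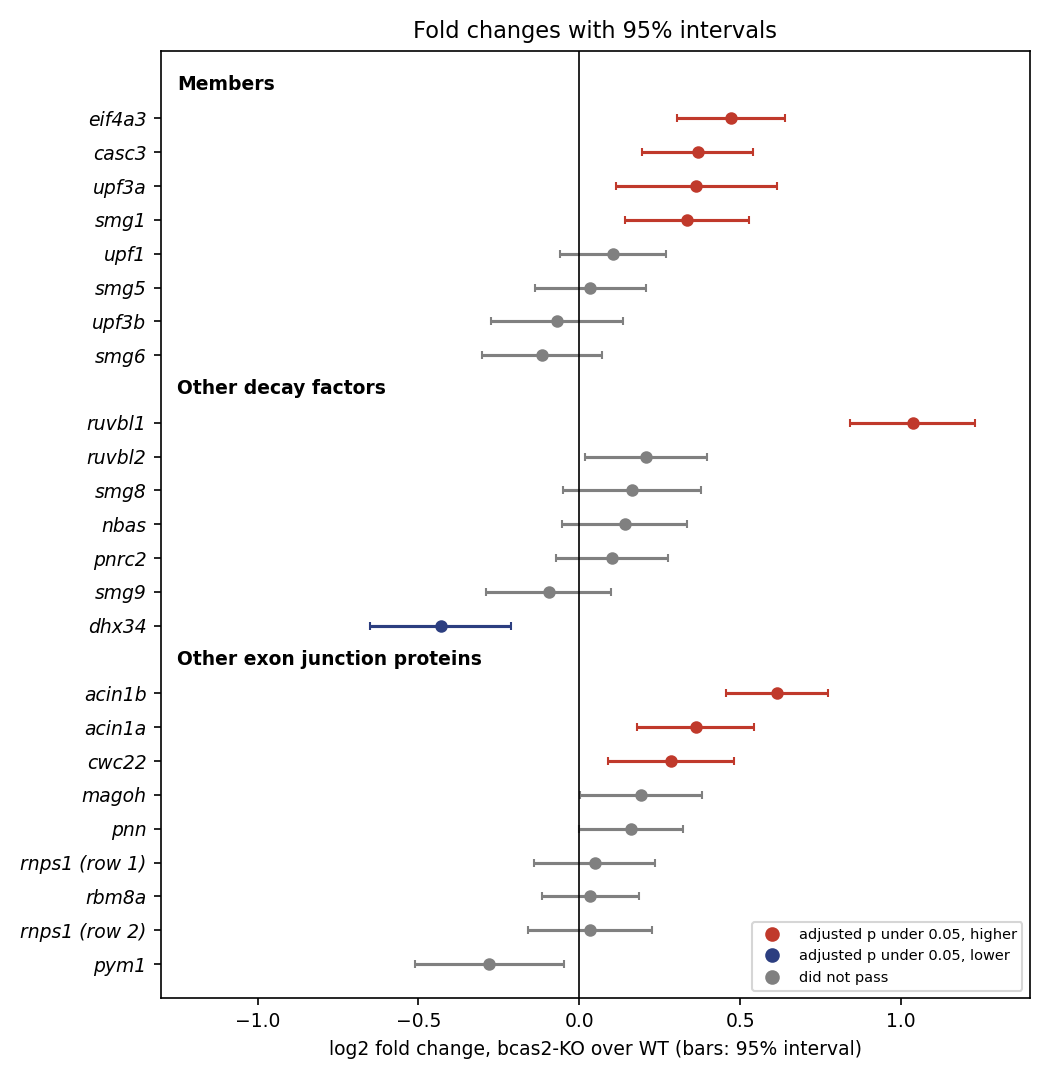
Log2 fold change of bcas2-KO over WT (horizontal axis) with its 95% interval for the 8 genes and for 2 further lists of decay and exon junction proteins, coloured by the edgeR call. The 4 called genes of the first block lie between 0.33 and 0.47, while ruvbl1 stands at 1.04 and dhx34 at -0.43.

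Of 7 further factors of the decay pathway, 1 rose, 1 fell and 5 did not pass, with a median log2 fold change of 0.14. Over all tested genes 10.6% rose and 9.01% fell. The gene ruvbl1, for an ATPase that acts with the SMG1 kinase complex and in many other assemblies, had 69.7, 66.8 and 73.7 CPM in the bcas2-KO libraries, against 37.3, 33.8 and 31.2 CPM in the WT libraries. It was 2.05-fold higher (adjusted p = 0.000126, edgeR), whereas its partner ruvbl2 had a log2 fold change of 0.21 that did not pass (adjusted p = 0.116). The helicase gene dhx34, whose human product promotes UPF1 phosphorylation, had 11.5, 10.2 and 11.1 CPM in the bcas2-KO libraries, against 13.7, 15.0 and 15.6 CPM in the WT libraries. The groups were apart, and the log2 fold change was -0.43 (adjusted p = 0.0155, edgeR), lost without WT library 2 (0.0668). Without both lens-rich libraries ruvbl1 (log2 fold change 1.08, adjusted p = 0.00114) and dhx34 (-0.48, adjusted p = 0.0333) kept their calls. The gene smg8, for a regulatory subunit of the SMG1 kinase complex, had a log2 fold change of 0.16 that did not pass (adjusted p = 0.258).

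Among 9 tested rows of other exon junction proteins, 3 rose, 0 fell and 6 did not pass, with a median log2 fold change of 0.16. The shares of all tested genes were 10.6% higher and 9.01% lower. With upper-quartile factors 2 of these rows rose and 1 fell, while 1746 of all tested genes rose and 2625 fell. The Acinus genes acin1b (1.53-fold, adjusted p = 0.000681) and acin1a (log2 fold change 0.36, adjusted p = 0.0145), for a peripheral subunit, rose by the edgeR test. The gene cwc22, for the spliceosomal protein that brings EIF4A3 to the RNA, had a log2 fold change of 0.29 (adjusted p = 0.0469, edgeR). The cwc22 call held in 1 of the 6 fits without a library, and was lost without bcas2-KO library 1 (0.152), bcas2-KO library 3 (0.123), WT library 1 (0.0560), WT library 2 (0.0970), WT library 3 (0.115) or both lens-rich libraries (0.129). The acin1a call was lost without bcas2-KO library 1 (0.0593) or WT library 2 (0.0718). Without both lens-rich libraries acin1a (adjusted p = 0.0166) and acin1b (0.00544) kept their calls. The gene pym1, for a protein that strips the complex from mRNA during translation, had 20.5, 24.2 and 25.2 CPM in the bcas2-KO libraries, against 30.7, 26.9 and 27.2 CPM in the WT libraries. Its groups were apart, but the pym1 log2 fold change of -0.28 did not pass (adjusted p = 0.0859, edgeR).

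Upstream of decay stand translation termination and the proteins on the cap and poly(A) tail. Of 10 such genes 0 rose, 2 fell and 8 did not pass, where 10.6% of all tested genes rose and 9.01% fell. Their median log2 fold change was 0.06. The poly(A)-binding protein gene pabpc1b fell to 81.5 ± 5.11 CPM in bcas2-KO, against 140 ± 15.5 CPM in WT (SD, n = 3 each; adjusted p = 0.000937, edgeR), while its more abundant paralog pabpc1a had a log2 fold change of -0.13 (adjusted p = 0.288). The release factor gene etf1a fell to 2.04 ± 0.369 CPM in bcas2-KO, against 3.86 ± 0.377 CPM in WT (SD, n = 3 each; adjusted p = 0.00928, edgeR). Its paralog etf1b, at 198 CPM in bcas2-KO and 202 CPM in WT, had a log2 fold change of -0.03 (adjusted p = 0.835). The gene pabpn1, for the nuclear poly(A)-binding protein, had 0.17 (adjusted p = 0.158) and gspt1, for the partner of the release factor, 0.15 (adjusted p = 0.209). Without both lens-rich libraries pabpc1b (adjusted p = 0.0023) and etf1a (0.0273) kept their calls.

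Enzymes that carry out decay, and proteins that work with them, were measured as a further list, called decay enzymes here for short. Of 40 tested rows 13 rose, 0 fell and 27 did not pass, with a median log2 fold change of 0.22. Of all tested genes, 10.6% rose and 9.01% fell. The helicase gene ddx6, which promotes decapping, had 24.4, 25.1 and 24.9 CPM in the bcas2-KO libraries, against 10.9, 11.2 and 12.2 CPM in the WT libraries, 2.17-fold higher (adjusted p = 9.2e-05, edgeR). The deadenylase genes pan2 (log2 fold change 0.60) and cnot8 (0.54) and the decapping scaffold gene edc4 (0.41) rose as well (adjusted p from 0.00185 to 0.00393, edgeR). The remaining genes of the 13, named after their values were seen, were cnot1, cnot3a, cnot3b, cnot4a, cnot4b, cnot7, cnot10, the 5′ exonuclease gene xrn1 and the exosome gene exosc1. With each library left out in turn, 5 of the 13 were called every time and cnot10 in 0 of the 6 fits. Without both lens-rich libraries 11 of the 13 were called, with cnot4b (adjusted p = 0.158) and cnot10 (0.152) lost. With upper-quartile factors 10 rose and 2 fell, while 1746 of all tested genes rose and 2625 fell. With limma on log2(FPKM + 0.1) 10 rose and 1 fell, while 1941 of all tested genes rose and 1913 fell.

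Among transcripts known, mostly from mammalian cells, to accumulate when nonsense-mediated decay is impaired, 0 of 12 rose, 2 fell and 10 did not pass, where 10.6% of all tested genes rose and 9.01% fell. The count that fell was 4 by DESeq2, without WT library 1 and without both lens-rich libraries, and 0 without bcas2-KO library 1, bcas2-KO library 3 or WT library 2. In the same order 2148, 2358 and 1604 of all genes fell, and 795, 1067 and 717, against 2013 by edgeR with 6 libraries. The list's median log2 fold change was -0.37, below the -0.02 of all tested genes. The stress transcription factor gene atf4a had 195, 197 and 196 CPM in the bcas2-KO libraries, against 233, 252 and 280 CPM in the WT libraries (log2 fold change -0.38, adjusted p = 0.0136, edgeR). The groups were clearly apart. The growth arrest gene gadd45ab had 6.98, 8.16 and 8.77 CPM in the bcas2-KO libraries, against 9.81, 12.5 and 15.5 CPM in the WT libraries (log2 fold change -0.66, adjusted p = 0.0252, edgeR). The stress genes ddit3 (-0.37, adjusted p = 0.0523) and atf3 (-0.70, adjusted p = 0.0775) did not pass. The gadd45ab call was lost without bcas2-KO library 1, 2 or 3 (0.102, 0.0673 and 0.0509) or WT library 2 or 3 (0.0822 and 0.0592), and the atf4a call without bcas2-KO library 1 (0.0596), bcas2-KO library 3 (0.0509) or WT library 2 (0.0563). Without both lens-rich libraries atf4a (adjusted p = 0.0228) and gadd45ab (0.0120) kept their calls. Many of these transcripts also answer to stress signals, whose part was not tested, and a gene-level count does not separate isoforms with early stop codons from the others.

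**Figure D4:**
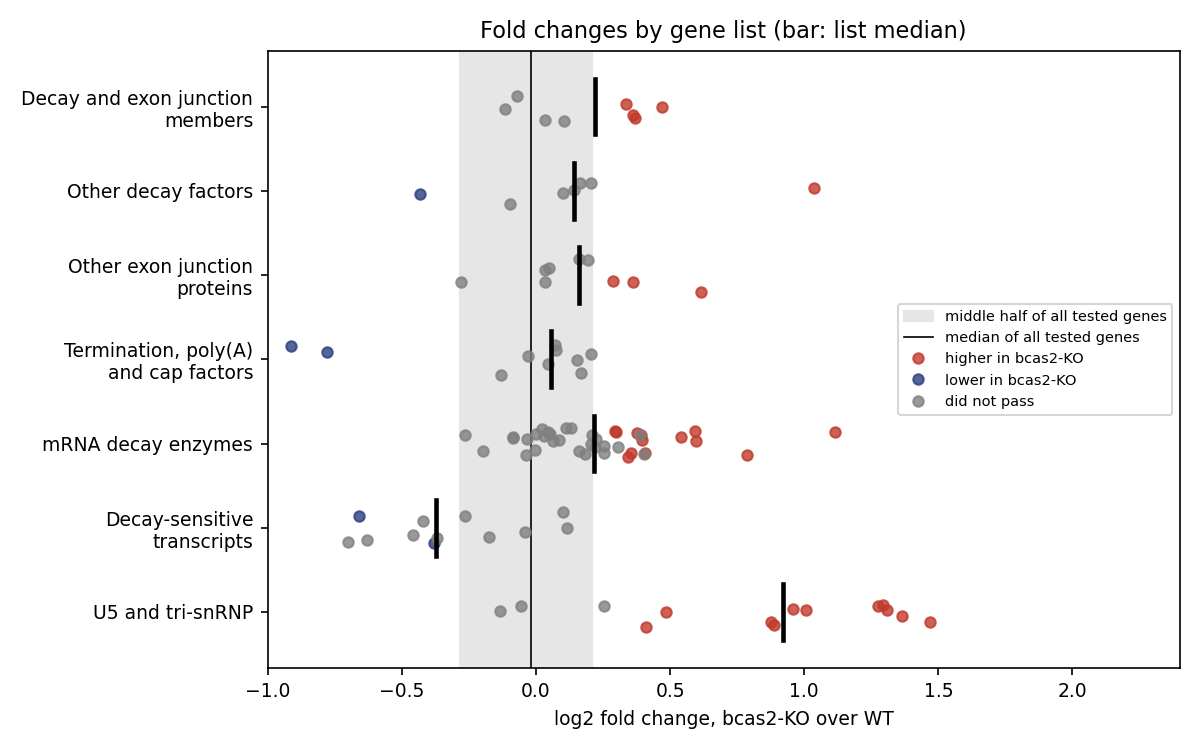
Log2 fold change of bcas2-KO over WT (horizontal axis) for each tested gene of 7 lists, coloured by the edgeR call, with the list median as a thick bar, the median of all tested genes as a thin line and their middle quartiles as a grey band. The medians of the decay and exon junction lists lie between 0.14 and 0.22, that of the U5 and tri-snRNP proteins at 0.92 and that of decay-sensitive transcripts at -0.37.

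U5 and tri-snRNP proteins, which act in the spliceosome before the exon junction complex is left on the mRNA, were measured for comparison. Of 14 such genes 11 rose, 0 fell and 3 did not pass, where 10.6% of all tested genes rose and 9.01% fell. Their log2 fold changes ran from -0.14 to 1.47. The median was 0.92, against 0.22 for the 8 decay and exon junction genes. The genes snrnp200, prpf8, prpf3 and eftud2 had log2 fold changes of 1.31, 1.47, 1.36 and 1.29 (adjusted p at most 3.2e-05, edgeR), with 95% intervals that began at 1.11 or above. The intervals of all 8 decay and exon junction genes ended at or below 0.64. Other genes of the U5 and tri-snRNP list had intervals that overlapped some of those 8. Among them were prpf6 (log2 fold change 0.41) and usp39 (0.48, with an interval from 0.26 to 0.70), both called higher. The 11 calls held in each fit without a library and without both lens-rich libraries. DESeq2 called 0 other exon junction proteins, decay enzymes and U5 genes lower and 0 termination and cap genes and decay-sensitive transcripts higher. At an unadjusted p under 0.05, 5 of the other exon junction rows were higher and 1 lower, and 19 of the decay enzyme rows higher and 2 lower. Of the termination and cap genes 0 were higher and 2 lower, of the decay-sensitive transcripts 0 and 5, and of the U5 genes 12 and 0. The share of all tested genes at that threshold is not given here. The 95% intervals of the U5 genes and of the 8 genes come from a single fit and the difference between the lists was not tested. The cytosolic relatives of eif4a3 that unwind mRNA for translation were measured as well. Of 3, eif4a1b (log2 fold change 0.29, adjusted p = 0.0261) and eif4a2 (0.34, adjusted p = 0.0339) rose and eif4a1a (0.13, adjusted p = 0.295) did not pass by the edgeR test. Both calls held in 1 of the 6 fits without a library, the one without WT library 1. Without both lens-rich libraries eif4a2 kept its call (adjusted p = 0.0216, edgeR) and eif4a1b did not (0.0570). With upper-quartile factors neither eif4a1b (adjusted p = 0.0561, edgeR) nor eif4a2 (0.0674) was called. The sources used here do not say how reads that match several of these related genes were treated.

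**Figure D5:**
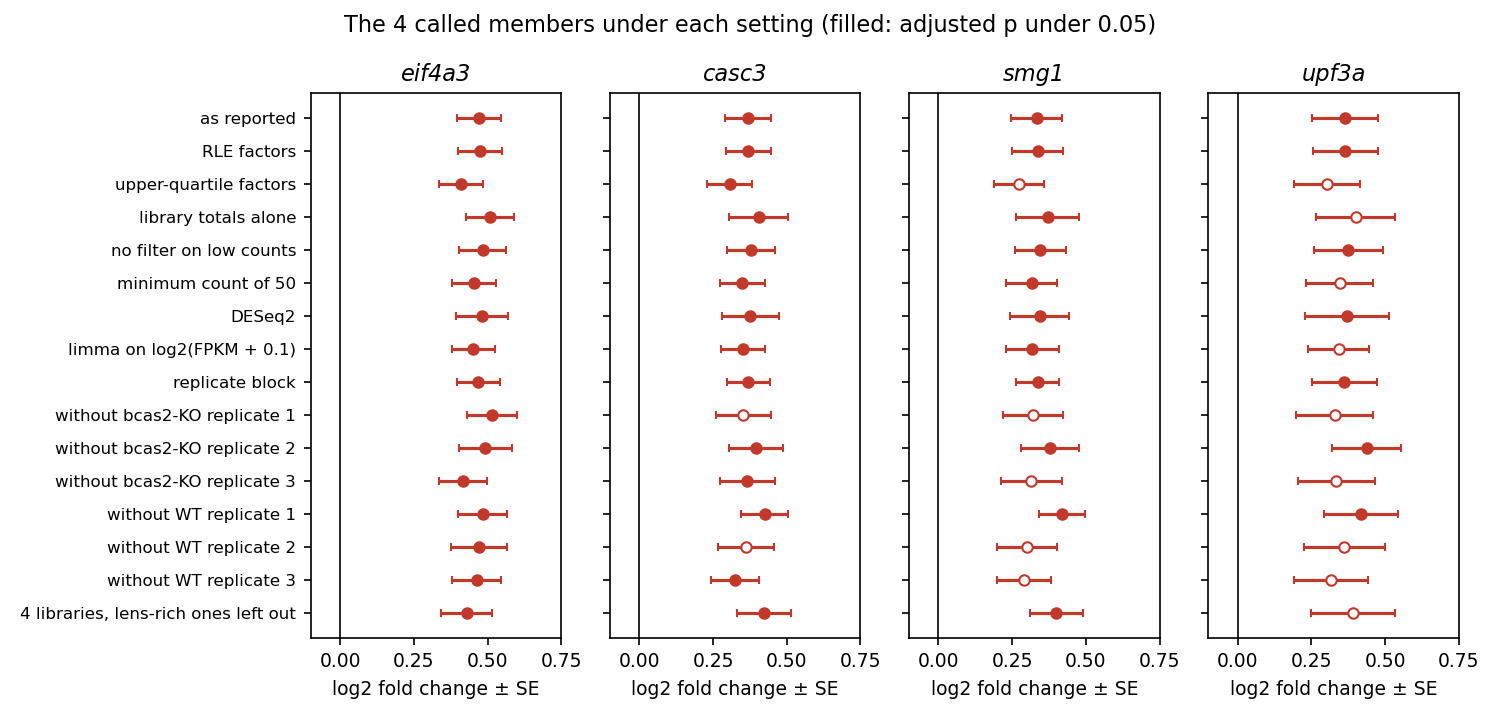
Log2 fold change ± SE (horizontal axis) of the 4 called genes as reported and under 15 other settings (rows), with filled points where the adjusted p is under 0.05. The eif4a3 points are filled in every row, while upf3a points are open in 9 of the 15 other settings.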

How the data were processed

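RNA from pools of 10 embryos was sequenced as paired reads of 150 bases after library preparation with a NEBNext Ultra RNA kit, per the labels' protocols. The deposited counts are unnormalized reads for each Ensembl gene, in whole numbers. The authors' FPKM table holds the same libraries, scaled by length and depth. For both tables together, the notes of the submitters list STAR 2.6.1a, cutadapt 1.15, StringTie 1.3.3b, featureCounts 1.6.0 and DESeq2 1.22.1, with the build GRCz11. Strand setting, annotation release and the treatment of multiply mapped reads are not given in the sources, so reads of overlapping or antisense genes may be mixed. The count of a gene divided by its FPKM was constant after 1 factor per library (coefficient of variation at most 0.0261% over 11730 genes).

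Counts were filtered (filterByExpr, minimum count 10) and scaled by TMM. They were compared with the two-sided robust quasi-likelihood test of edgeR 4.0.16 in R 4.3.3, with genotype as the only term. Before use the test was run on simulated data, where the changes set were all larger than those of the called members. P-values were adjusted over all 22347 genes. Alternatives used DESeq2 1.42.0 and limma 3.58.1, the latter on log2(FPKM + 0.1). Ratios were compared by an exact permutation test over libraries. A planned ratio of upf1 to upf2 could not be computed without a upf2 row. Chi-square per degree of freedom within a genotype was 12.7 to 34.4, far above sampling noise. The members and lists were chosen with earlier results of these data known. The text names all members, bcas2, magoh, rbm8a, crybb1, elavl3 and up to 4 genes of each other list with the smallest p. Any other gene was named after its values were seen, among them pabpc1a, etf1b, prpf6, usp39 and rho. No member lies on the chromosome of bcas2 in RefSeq genes of another assembly, GRCz12tu. A further decay factor of the lists is not reported here. Sequences were not used here.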

Additional observations from a re-analysis of the deposited data

How the results depend on the processing

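Over 15 alternatives, eif4a3 kept its call in all, casc3 in 13, smg1 in 10 and upf3a in 6, and none of these 4 changed sign. Without 1 library at a time, 1 to 4 members were higher and 0 lower, 1013 to 2813 genes were higher and 717 to 2358 lower. With upper-quartile factors, which moved the median of all genes to -0.08, 2 members were higher, smg1 (adjusted p = 0.0509) and upf3a (0.0846) were not called, and smg5 turned to -0.026. The smg5 value also turned in the 4 libraries without the lens-rich ones (-0.040) and without WT library 1 (-0.0045) or bcas2-KO library 3 (-0.00085). It reached 0.072 at most without 1 library and 0.074 over all 15 alternatives. The upf3a call was also lost with library totals alone (adjusted p = 0.0645), a minimum count of 50 (0.0536) and limma on log2(FPKM + 0.1) (0.0568). The cause was not tested. Deviations of same-numbered libraries correlated at -0.14, 0.37 and 0.01, and those of other pairs at -0.34 to 0.29. The 0.37 of bcas2-KO library 2 with WT library 2 was the highest of all. With so few libraries these values cannot decide whether the replicate numbers pair the samples. With the replicate block, 4 members were higher and 0 lower, and 2604 genes were higher and 2318 lower. Leaving out 1 library, the log2 difference ranged from -0.55 to -0.35 for the ratio of upf3b to upf3a and from 0.39 to 0.48 for that of eif4a3 to rbm8a. The exact p of upf3b to upf3a was 0.2 without any 1 library other than WT library 1 (0.1), and 0.333, the smallest possible, with 4 libraries. The members had between 256 and 5863 counts in a library.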

Other observations

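Some symbols of the decay lists could not be read as a single gene. The symbol rnps1, for a peripheral exon junction protein, stood on 2 rows with similar values, 60.3 and 61.0 CPM in bcas2-KO and 58.9 and 59.0 CPM in WT, neither called. The exosome symbol exosc3 also stood on 2 rows, with log2 fold changes of 0.40 and 0.39 that did not pass (adjusted p = 0.109 and 0.0825, edgeR). The genes sap18 and chac1 are listed at 0 in all 6 libraries, so no level can be given for them. The lens gene crybb1 had 73.1 CPM in bcas2-KO library 3 and 71.6 CPM in WT library 1, while the 4 remaining libraries lay between 0.0247 and 0.449 CPM.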
